A study of Arabidopsis thaliana with 8 samples.

Results

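The tiles of plates TA31 to TA36 form the segment of a chromosome 4 tiling array that lies, in tile numbering, between the long low blocks TA21 to TA30 and TA37 to TA51. Members were all tiles of series TA with a plate number from 31 to 36 and a value on every array. They numbered 556 of the 21296 measured tiles of the array, out of 576 tile IDs on these 6 plates. The plates were chosen by their median log ratio, the same measure that is described here, so the levels below are a description and carry no test of the segment against its flanks.

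Dimethylation of histone H3 at lysine 4 (H3K4me2) is a chromatin mark laid down over genes by SET-domain methyltransferases and removed by LSD1-type and JmjC demethylases. In Arabidopsis it is known as a mark of genic euchromatin, found over both active and silent genes and largely missing from the transposon-rich heterochromatin around the centromeres and, in some accessions, in a knob on the short arm of chromosome 4. Whether any of the plates named here lies in these structures is not given in the sources used here, since no table ties a tile to a position or a gene.

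The material was untreated seedlings of the accession C24, 10 days old, grown in liquid MS medium. DNA immunoprecipitated with an antibody to H3K4me2 (IP) was hybridised against input DNA. There were 4 replicates, numbered I to IV, from 50 µg each, and a pair of arrays with swapped dyes for each made 8 arrays in all. The labels name no separate cultures for the replicates, so a p-value reflects no more than the spread among these 4, which may be technical. No other accession, hybrid or tissue entered the comparison, and seedlings mix many cell types, so a mark at an intermediate level in all cells and a mark present in some cells cannot be told apart.

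Both arrays of every dye swap held identical values, so each swap counted as 1 replicate and n was 4. Where 4 values are given in replicate order, they are those of I to IV. Values are log ratios in deposited units, minus the median of all tiles of that replicate. The log base and the direction of the ratio (IP over input or the reverse) are not stated, so tiles are called above or below the array median and not enriched or depleted. Replicates I and III resembled each other more than either resembled II or IV, and II resembled IV. A limma fit that treated each pair as a block put the correlation within pairs at 0.7, so the 4 were not fully independent. Adjusted p-values treat the 4 as independent and are therefore likely too small.

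As one stretch, TA31 to TA36 lay close to the array median and held high and low tiles in nearly equal number. The median over the 556 tiles was -0.06, -0.10, -0.11 and -0.05 in replicate order, or -0.08 ± 0.03 (SD, n = 4). All 4 values were slightly below 0. By limma's moderated test, at a Benjamini-Hochberg adjusted p of 0.05 over all tiles of the array, 213 of the 556 tiles (38.3%) were above the array median, against 42.2% of all tiles. Another 237 (42.6%) were below it, against 42.3% of all tiles, and 106 passed in neither direction. With the values as deposited, not centred, the counts were 94 above and 327 below, against 4370 and 11699 of all 21296 tiles. With each replicate centred on its mode they were 105 and 340, against 4820 and 12170 of all tiles. Of the 450 tiles called with median centring, 447 had 1 sign in all 4 replicates, which passing a test on these values nearly requires. Called or not, 462 of the 556 tiles had 1 sign, against 18355 of 21296 on the array. The limma standard error had a median of 0.11 over the segment.

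The spread of tile means within the segment was close to that of the whole array. The quartiles of the tile means were -1.04 and 0.74, and those of all tiles of the array were -1.07 and 0.91. The lowest tile of the segment was at -4.27 and the highest at 4.32. A mean more than 1 above the array median was found for 103 tiles (18.5%), against 22.3% of all tiles, and a mean more than 1 below it for 144 tiles (25.9%), against 26.3%. More than 2 above were 13 tiles (2.34%, against 2.49% of all tiles) and more than 2 below were 64 (11.5%, against 13.4%). The segment gave 53 tiles (9.53%) to the array's highest 10% and 48 (8.63%) to its lowest 10%. These shares are near those of the array as a whole.

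**Figure D1:**
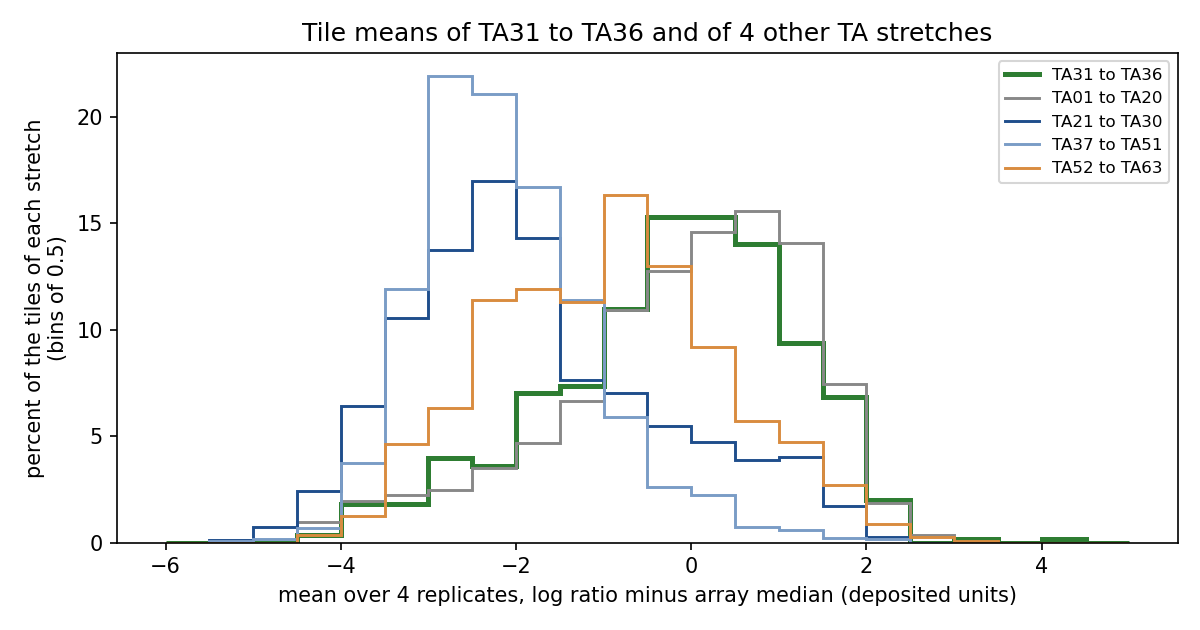
Percent of tiles in bins of 0.5 of the mean log ratio over 4 replicates (array median subtracted, deposited units), for TA31 to TA36 (thick line) and for 4 other TA stretches. The segment and TA01 to TA20 both peak between -0.5 and 1 with a long low tail, TA21 to TA30 and TA37 to TA51 peak below -2, and TA52 to TA63 peaks between -1 and -0.5.

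Of the other TA stretches, TA64 to TA99 was the nearest in level, with a median of -0.01 ± 0.02 (SD, n = 4) and 1333 of 3330 tiles above the array median and 1318 below. In TA01 to TA20, which precedes the first low block, the median was 0.08, 0.18, 0.13 and 0.14 in replicate order, and the segment minus this stretch gave -0.14, -0.27, -0.25 and -0.19. In TA01 to TA20, 45.3% of 1865 tiles were above the array median and 38.9% below. In TA52 to TA63, the mixed stretch after the longer low block, 205 of 1141 tiles were above and 798 below, with a median of -0.94 ± 0.02 (SD, n = 4). The flanking blocks had far fewer tiles above the array median: 98 of 824 in TA21 to TA30 and 33 of 1343 in TA37 to TA51. None of these differences was tested, because the stretches were drawn from the same values.

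The near-zero median covered plates of different level (the plot of plate medians). TA32 was the highest of the 6, with medians of 0.29, 0.28, 0.32 and 0.46 in replicate order, and it held 48 tiles above the array median and 30 below, of 92. TA34 was the lowest, with medians of -0.84, -0.82, -0.77 and -0.79 in replicate order, and 58 of its 94 tiles were below against 21 above. The replicates of these plates did not overlap, but the plates were picked as highest and lowest by the same medians. The SD over tiles was 1.11 on TA32 and 1.25 on TA34. TA35 was the other low plate, with medians from -0.56 to -0.40 and 49 of 96 tiles below.

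TA31, TA33 and TA36 lay between TA35 and TA32. Their medians were 0.12 ± 0.05 (SD, n = 4) for TA31, 0.12 ± 0.12 for TA33 and 0.07 ± 0.09 for TA36. The replicates of these 3 plates overlapped, so that their order is not resolved, and replicate I of TA36 was below 0 at -0.04. As tiles above against tiles below, TA31 had 39 and 31, TA33 had 39 and 32, and TA36 had 39 and 37. All 6 plates lay above the flanking plates, TA30 at -1.33 ± 0.09 and TA37 at -2.35 ± 0.04.

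**Figure D2:**
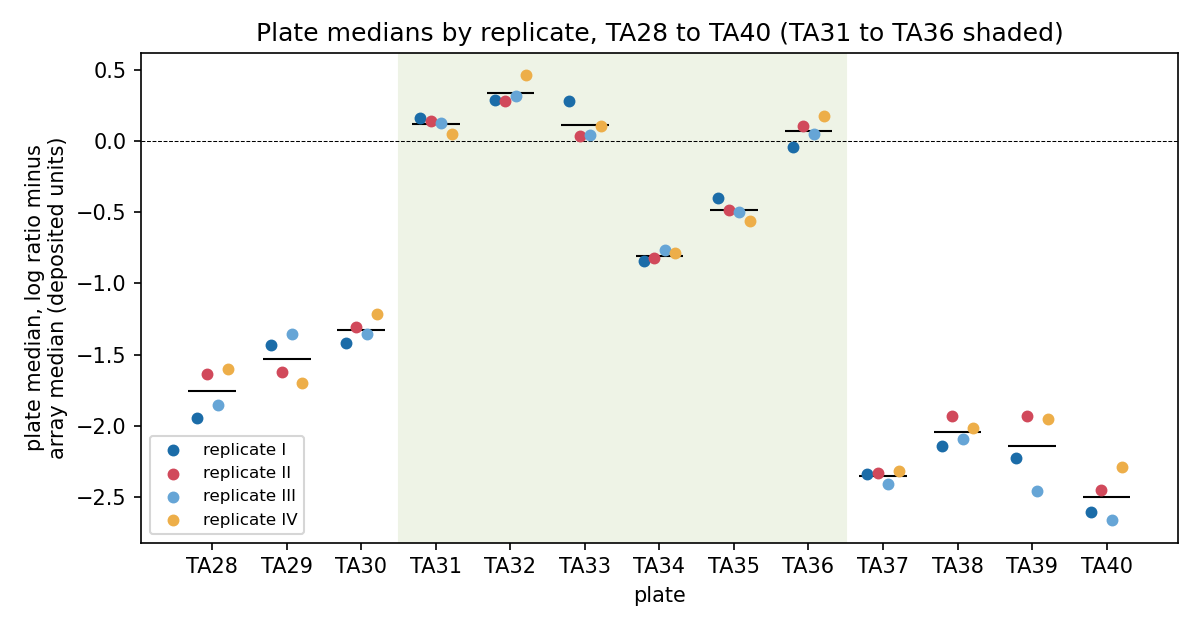
Median log ratio of each plate from TA28 to TA40, with 1 point per replicate and a bar at their mean (array median subtracted, deposited units); the shaded plates are TA31 to TA36. TA34 at -0.80 and TA35 at -0.49 sit below the other 4 plates of the segment and above every flanking plate shown.

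Read in order, the segment had a higher first part, a lower middle and a higher stretch before its end, a division made after the values were seen. Over TA31 to TA33 the median was 0.19 ± 0.05 (SD, n = 4), with 126 of 270 tiles above the array median and 93 below. Over TA34 and TA35 it was -0.63 ± 0.07, with 48 of 190 tiles above and 107 below. Over rows A to F of TA36 it was 0.27, 0.60, 0.24 and 0.51 in replicate order, with 37 of 72 tiles above and 18 below. In that stretch the replicates II and IV were higher than I and III. TA34 and TA35 held 43 of the segment's 64 tiles more than 2 below the array median, 24 of them on TA35 and 19 on TA34, while TA32 held 1 and TA33 held 3.

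The 48 rows of up to 12 consecutive wells gave a finer map. In 16 rows the median was above 0 in all 4 replicates and in 25 it was below 0 in all 4. The highest rows by mean were TA33H at 1.17 ± 0.14 (SD, n = 4), TA36B at 1.13 ± 0.06 and TA33D at 1.09 ± 0.12. Every measured tile of TA36B was above the array median by limma's test. The lowest were TA35F at -3.30 ± 0.24, TA35G at -2.42 ± 0.21 and TA36H at -2.12 ± 0.28. TA35F and TA35G stood directly after TA35E at -0.24 ± 0.18 and before TA35H at 0.27 ± 0.08.

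**Figure D3:**
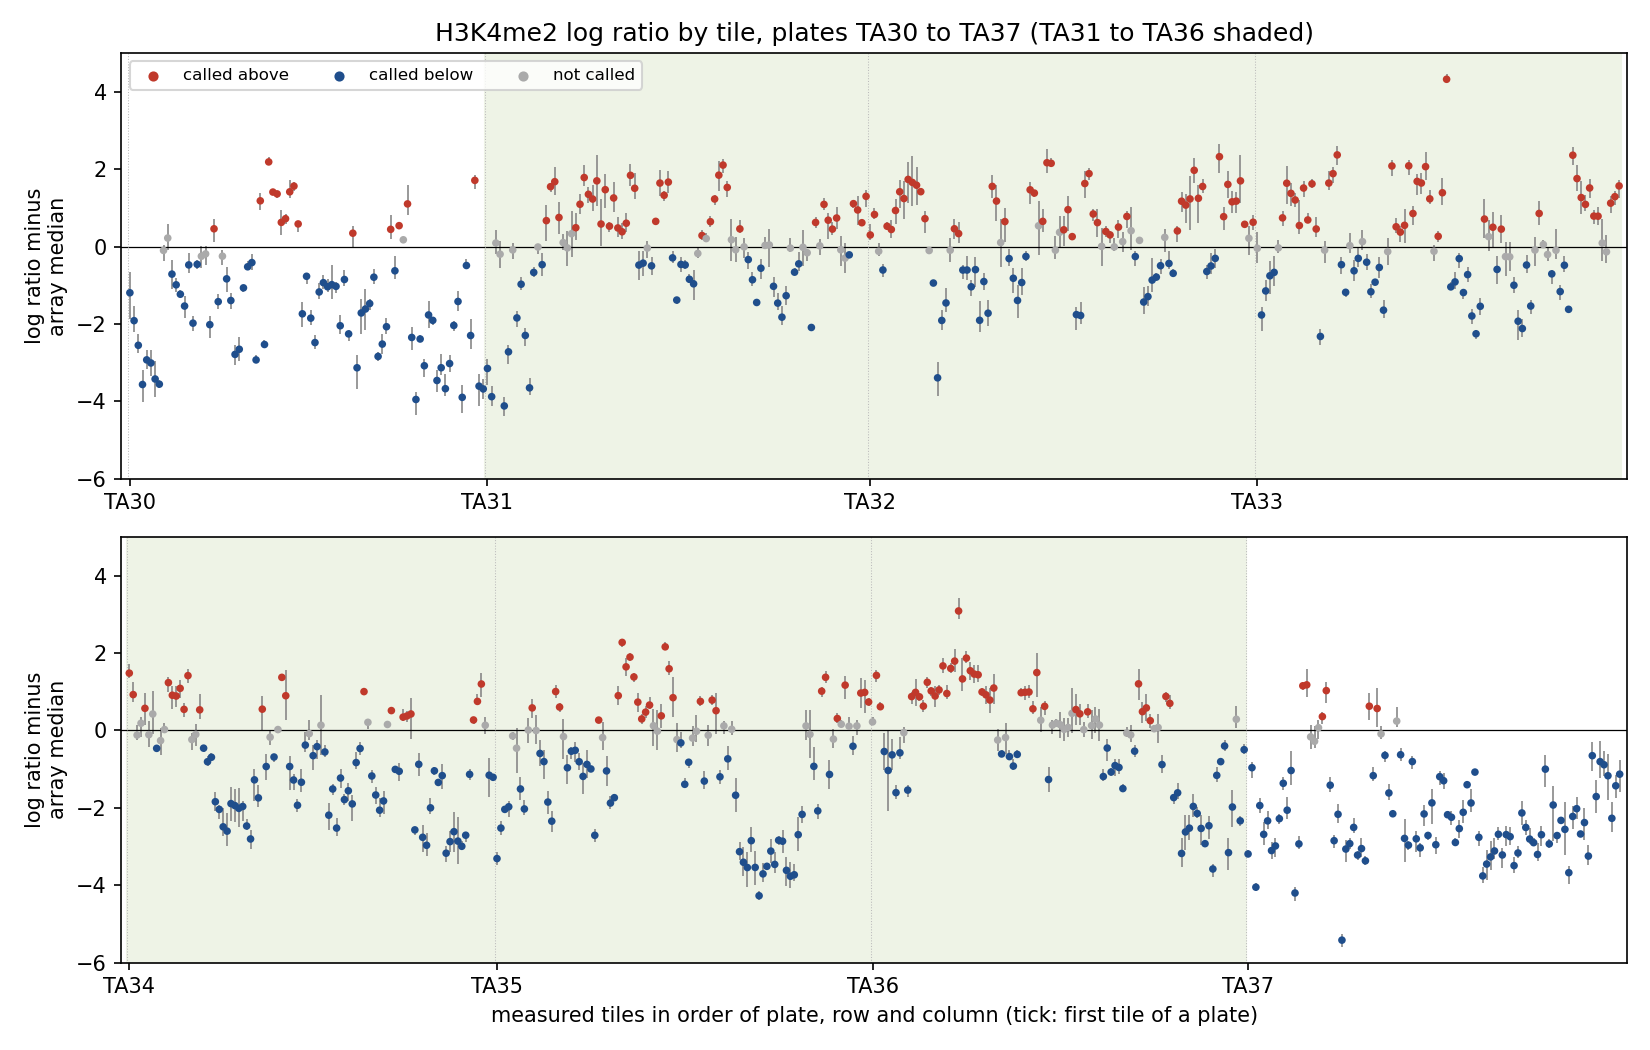
Log ratio of each measured tile of plates TA30 to TA37 in order of plate, row and column, with the mean over 4 replicates as a point and the lowest to highest replicate as a line (array median subtracted, deposited units). Red points were above and blue points below the array median by limma's test, and grey points passed in neither direction. Within the shaded TA31 to TA36, runs of red and blue alternate, with the deepest blue run on TA35 and low tiles at both ends.

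The plate limits did not fall where the values changed. Just outside the first limit, TA30H12 was at -3.64, -3.70, -3.43 and -3.94 in replicate order. Just inside, TA31A01 was at -3.04, -3.08, -2.91 and -3.58 in the same order, and TA31A02 at -3.88, -3.90, -3.60 and -4.13. These 3 tiles were far below the array median in every replicate. TA31A03 was at 0.09 ± 0.28 (SD, n = 4), and the low values then returned: TA31A08, the lowest tile of the plate, was at -4.03, -4.18, -3.89 and -4.37. Other low tiles, mixed with tiles near 0, followed as far as TA31B06 at -0.47 ± 0.30. From TA31B07, at 0.67 ± 0.45, to the end of row D, 23 of 30 tiles were above the array median.

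At the far limit the change came before the last plate ended. Rows G and H of TA36 had a median of -1.96, -1.72, -1.67 and -1.60 in replicate order, with 19 of 24 tiles below the array median and 2 above. All 4 replicates lay below the median of every plate of the segment and above that of TA37, which began with TA37A01 at -3.19 ± 0.09 (SD, n = 4), TA37A02 at -0.96 ± 0.19 and TA37A03 at -4.05 ± 0.09. The last tiles of the segment alternated in the same way, with TA36H10 at 0.29 ± 0.28, TA36H11 at -2.34 ± 0.12 and TA36H12 at -0.50 ± 0.10. On the outer side of the first limit too, TA30H10 was at 1.71 ± 0.16 beside TA30H11 at -3.61 ± 0.37. Without rows A and B of TA31 and rows G and H of TA36, an alternative chosen after the values were seen, the median of the remaining 512 tiles was -0.01 ± 0.04, with 207 tiles above and 208 below.

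Tiles above and below the array median came in runs. Consecutive measured tiles above it by limma's test fell into 61 runs, on average 3.49 tiles long, and those below it into 64 runs, on average 3.70 long. Of the tiles above, 57.7% were in runs of at least 5, and of those below 63.3%. In TA01 to TA20 the mean lengths were 3.23 and 3.06 tiles, and these shares were 50.9% and 49.1%. In TA52 to TA63 the mean lengths were 2.93 above and 6.76 below. The longest runs had 22 tiles above and 18 below in the segment, and the same in the larger stretch TA01 to TA20. In TA52 to TA63 they had 10 and 70 tiles.

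The longest run below the array median was also the deepest of the segment's runs of 5 tiles or more. It ran over 18 tiles from TA35F02 to TA35G07, with a median of -3.51, -3.08, -3.51 and -3.12 in replicate order. The replicates I and III were lower than II and IV by about 0.4. All 4 were below the medians of both flanking blocks, -2.04 ± 0.12 (SD, n = 4) for TA21 to TA30 and -2.24 ± 0.13 for TA37 to TA51. This sets a selected run against whole blocks, whose own low runs were not listed. The lowest 5% of tile means lay below -3.79 in TA21 to TA30 and below -3.48 in TA37 to TA51. Its lowest tile, TA35F08, was at -4.36, -4.19, -4.15 and -4.39 in replicate order (limma adjusted p = 2.4e-07), the 28th lowest of the array. The run had sharp ends: TA35F01 before it was at 0.03 ± 0.18 and TA35G08 after it at 0.11 ± 0.31.

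Several more low runs had at least 15 tiles. The run from TA36G06 to TA36H09, at the end of the segment, had 16 tiles with a median of -2.35 ± 0.18 (SD, n = 4). TA34 held a pair of 15 tiles each, from TA34B08 to TA34C10 at -1.90 ± 0.34 and from TA34G03 to TA34H05 at -2.55 ± 0.29. In each of these 3 runs the medians of I and III were below those of II and IV. TA34 also held a run of 10 tiles from TA34E03 to TA34E12 at -1.53 ± 0.04, in which all replicates lay close together.

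The longest run above the array median lay in the higher stretch of TA36. It ran over 22 tiles from TA36A11 to TA36C08, with a median of 1.08, 1.18, 1.01 and 1.19 in replicate order. Its lowest tile was at 0.63 and its highest, TA36B11, was at 3.03, 2.89, 3.42 and 3.01 in replicate order (limma adjusted p = 3.4e-07), the 20th highest tile of the array. The extent of the run depended on the choice of zero: with values as deposited neither end tile was called (limma adjusted p = 0.20 for TA36A11 and 0.12 for TA36C08), and with mode centring TA36A11 was not (limma adjusted p = 0.19). A run of 15 tiles from TA31C02 to TA31D04 had a median of 1.06 ± 0.06 (SD, n = 4). Runs of 10 tiles lay from TA32A06 to TA32B03 at 1.18 ± 0.18 and from TA33D01 to TA33D10 at 1.36 ± 0.12. Over the 6 high runs of 8 tiles or more the medians lay between 1.05 and 1.36, and over the 7 such low runs between -3.30 and -0.91.

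One tile stood alone above everything else in the segment. TA33E02 was at 4.31, 4.45, 4.26 and 4.27 in replicate order (limma adjusted p = 2.4e-07). All 4 replicates lay within 0.2 of each other, and the tile was the third highest of the 21296 on the array. Its neighbours were far lower: TA33E01 at 1.39 ± 0.35 (SD, n = 4) and TA33E03 at -1.04 ± 0.09. It exceeded the mean of the pair by 4.15, and the step of 5.36 down to TA33E03 was the largest between consecutive measured tiles of the segment. The median step was 0.56.

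The other extreme tiles of each plate reached different levels on the low and on the high side (the plot of plate extremes). Besides TA33E02 and TA36B11, the highest tile was TA31F02 at 2.10 ± 0.15 (SD, n = 4) on TA31, TA32H03 at 2.32 ± 0.31 on TA32 and TA35C09 at 2.27 ± 0.08 on TA35. TA34 was the lower exception, with TA34A01 at 1.48 ± 0.18 as its highest tile. The second highest tiles ran from TA34B04 at 1.41 ± 0.15 to TA33B11 at 2.37 ± 0.21. These plate maxima were all past the threshold with 1 sign in 4 of 4 replicates, which the choice of tiles required.

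On the low side the plates also differed. The lowest tile was at -4.12 ± 0.21 (SD, n = 4) on TA31 (TA31A08) and at -4.27 ± 0.12 on TA35 (TA35F08), but only at -2.32 ± 0.18 on TA33 (TA33B07). On TA32 the lowest, TA32B07, was at -3.66, -2.98, -3.85 and -3.09 in replicate order. Here I and III were again below II and IV. TA32B07 lay in a short low run from TA32B06 at -0.94 to TA32B09 at -1.46. TA32B08 in this run was at -1.91 ± 0.29 and was the second lowest tile of the plate. TA33B07 was a single low tile between TA33B06 at 0.45 and TA33B08 at -0.09. The lowest tiles of TA34, TA34G11 at -3.17 ± 0.18 and TA34H03 beside the low tile TA34H02, and of TA36, TA36H04 at -3.58 ± 0.15 and TA36G08 at -3.18 ± 0.32, were parts of long low runs.

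**Figure D4:**
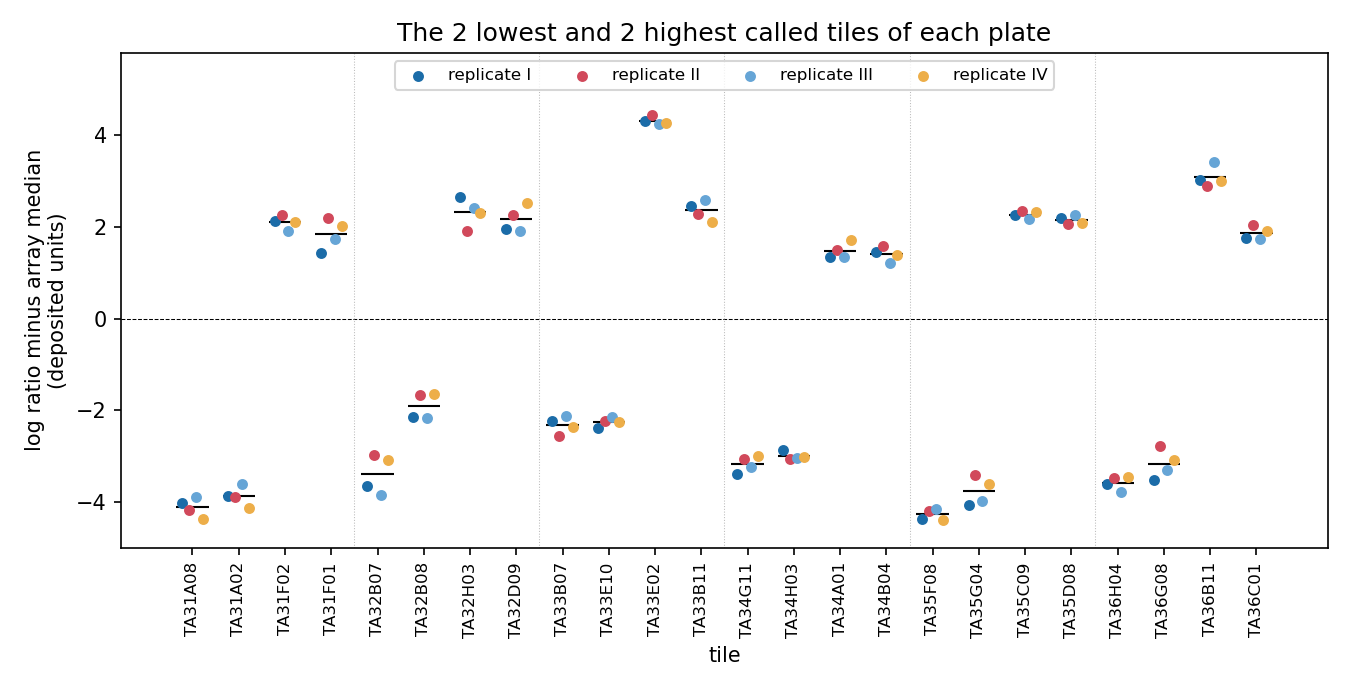
The 2 lowest and the 2 highest tiles of each plate among those past limma's adjusted threshold with 1 sign in all replicates, with 1 point per replicate and a bar at their mean (array median subtracted, deposited units). TA33E02 at 4.32 and TA36B11 at 3.08 lie above all other tiles shown, and TA35F08 at -4.27 is the lowest.

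Sharp contrasts with both neighbours were found in either direction. Besides TA33E02, the tiles farthest above the mean of their neighbours were TA36H10, by 2.45, and TA33H01, by 2.29. TA33H01 was at 2.57, 2.33, 2.43 and 2.11 in replicate order, directly after TA33G12 at -1.54, -1.68, -1.61 and -1.67. All replicates of the former were above the array median and all of the latter below it. The tiles farthest below the mean of their neighbours were TA33E03, TA31A08 and TA33G12, with differences of -2.75, -2.66 and -2.56, of which TA33E03 adjoins TA33E02 and TA33G12 adjoins TA33H01.

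Neighbouring tiles were alike in spite of these steps. Pearson's r between adjacent wells along the rows was 0.71, 0.70, 0.71 and 0.69 in replicate order, over 536 pairs of tiles, which share their array and are not independent. Tiles 2 apart had an r of 0.55, tiles 5 apart 0.35, tiles 12 apart 0.17 and tiles 48 apart 0.01. Down the columns of the plates adjacent wells had an r of 0.12 on average. With each plate's median removed the r along rows was 0.67. In the flanking blocks the r between adjacent wells was 0.66 in TA21 to TA30 and 0.50 in TA37 to TA51. It was 0.56 in TA01 to TA20 and 0.71 in TA52 to TA63.

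The steps at the plate limits within the segment were of different size. TA33H12 at 1.57 was followed by TA34A01 at 1.48, TA35H12 at 0.73 by TA36A01 at 0.22, TA32H12 at 0.63 by TA33A01 at -0.05, and TA31H12 at 1.30 by TA32A01 at 0.30. The step from TA34H12 at -1.21 to TA35A01 at -3.31 was the largest of the 5 joins inside the segment. It lay inside a low run of 6 tiles from TA34H11 to TA35A04.

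Replicates were not equally alike within the segment, nor over the whole array. The choice of plates by their mean level did not use this. Across the 556 tiles the difference between III and I had an SD of 0.23 and that between IV and II an SD of 0.20, and the SD ran from 0.43 to 0.47 for the other 4 pairs of replicates. Pearson's r across tiles was 0.987 and 0.990 for the former pairs and from 0.945 to 0.953 for the latter. Over all tiles of the array the SD was 0.24 for both former pairs and from 0.45 to 0.48 for the latter. The r there was 0.986 and 0.987, against 0.945 to 0.950. The spread of a tile over replicates had a median SD of 0.21 in the segment and 0.22 over all tiles, and it was nearly the same at all levels, from 0.21 in tiles with a mean between -2 and -1 to 0.22 in tiles above 1. What the replicates within a pair had in common in their handling is not given in the sources used here, and its part in the result was not tested.

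**Figure D5:**
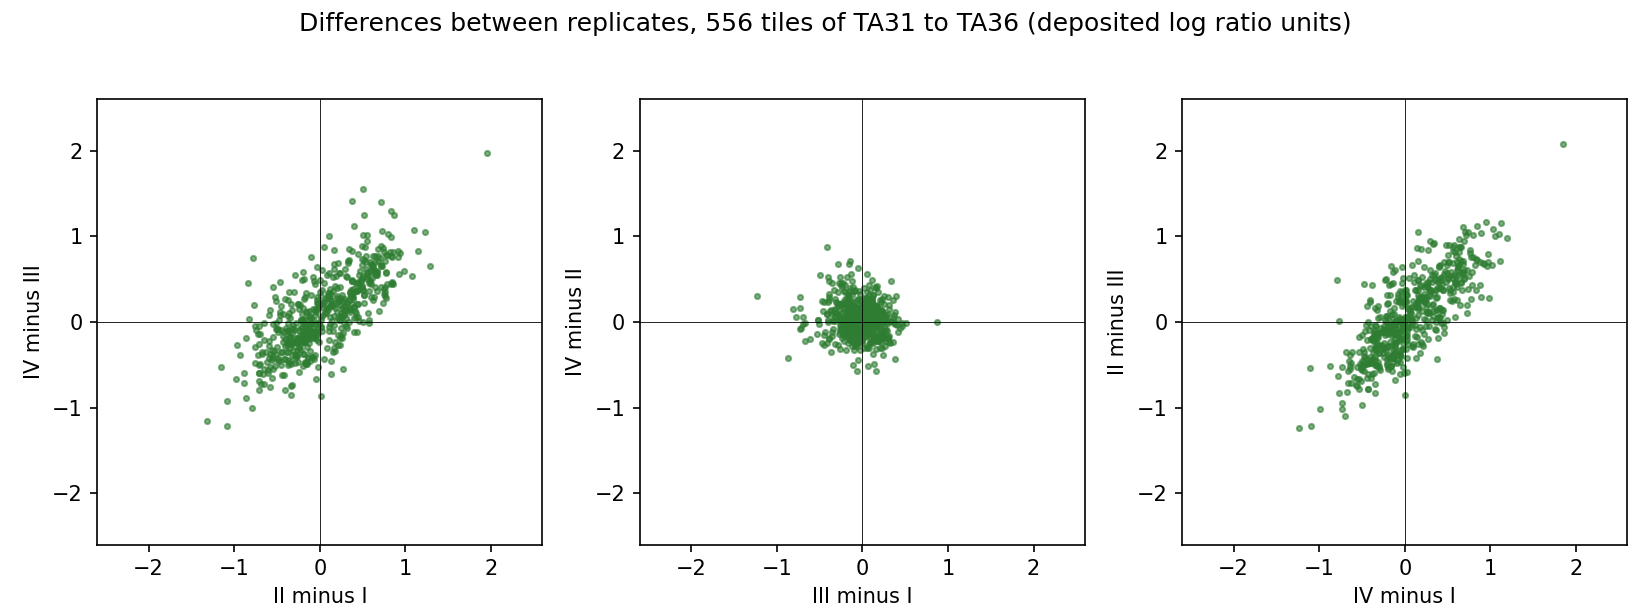
Differences between replicates for the 556 tiles of TA31 to TA36, each axis in deposited log ratio units and each point 1 tile. On the left (II against I on the x axis, IV against III on the y axis) the points spread along the diagonal. There r was 0.75 across these tiles and 0.73 over all tiles of the array. On the right (IV against I, II against III) the points spread along the diagonal too. In the middle (III against I, IV against II) they cluster at 0.

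The difference between the pairs, II and IV against I and III, was more than 0.5 in size in 146 tiles (26.3%), against 24.2% of all tiles of the array. It was more than 1 in 10 tiles (1.80%, against 2.55%), of which 7 were higher in II and IV. By plate, its median was -0.11 on TA31, 0.18 on TA32, -0.14 on TA33, 0.11 on TA34, -0.03 on TA35 and 0.18 on TA36. On TA35 it was near 0 beside a spread over tiles of 0.43 (SD), and 4 of the 8 rows of that plate had a positive median. Adjacent tiles had an r of 0.44 in this difference, against -0.0015 in III minus I and 0.11 in IV minus II, as a description across tiles. Over all tiles of the array these were 0.43, 0.08 and 0.15.

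TA36A05 had the largest spread of the segment. It was at -1.95, -0.002, -2.08 and -0.11 in replicate order. I and III placed it far below the array median and II and IV at the median, and its mean of -1.04 ± 1.14 (SD, n = 4) passed the threshold (limma adjusted p = 0.033) but not when I or III was left out (limma adjusted p = 0.12 for each). The tiles around it differed in the same direction: over the 5 tiles from TA36A04 to TA36A08 the median was -1.01, -0.18, -1.03 and -0.25 in replicate order.

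TA31C07 and TA31C08 differed in the opposite direction. TA31C07 was at 2.35, 1.04, 2.28 and 1.12 in replicate order, and TA31C08 at 1.09, 0.01, 1.22 and 0.00 in the same order. Both were thus higher in I and III by more than 1. TA34E02 had the third largest spread, at -0.13, 0.37, -0.63 and 0.92 in replicate order, and with a mean of 0.13 ± 0.67 (SD, n = 4) it was not distinguishable from the array median (limma adjusted p = 0.60). TA34H02, within a low run, was at -3.46, -2.24, -3.40 and -2.35 in replicate order, low in every replicate but by different amounts.

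Tiles without a value were few and unevenly placed. Of the 576 IDs of the segment, 20 had none (3.47%), against 2.14% of all 21761 tile IDs, 7.00% in TA21 to TA30 and 0.67% in TA37 to TA51. TA33 lacked 9, TA31 lacked 5, TA32 lacked 4 and TA34 lacked 2, while TA35 and TA36 were complete. On TA31, 4 of the 5 missing tiles were in rows A and B at the first limit: TA31A04, TA31A05, TA31A07 and TA31B04. Low tiles and tiles near 0 were mixed there. Tiles without a value were passed over when runs were read, so a run may span one.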

How the data were processed

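Per the labels' protocols, the DNA was amplified and took its Cy3 or Cy5 dye by direct labelling. The authors' deposited table holds 1 processed log ratio per tile and array, a value of another kind than counts or intensities; for software, normalization, log base and direction the sources used here have nothing, and signal over background is unknown. The 2 columns of each dye swap were identical and became 1 replicate. Each replicate was centred on its median over 21296 tiles; tiles without a value were left out. The mean of each tile's 4 values was compared with 0 by limma (version 3.58.1, run under R 4.3.3). The fit used lmFit and eBayes with 3 residual degrees of freedom, and Benjamini-Hochberg over all tiles at 0.05. The code was first tested on simulated data with 4 independent replicates. That test cannot show the error rate under the pairing of replicates seen here. Other statistics used Python 3.11.15 with numpy 2.4.6 and pandas 2.3.3.

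Tiles were ordered by plate, row and column. The number of arrays limits the precision. Members, lists and comparison stretches were chosen with earlier results of these data known. Named tiles were the 2 highest and 2 lowest called tiles of each plate, 3 tiles on either side of each limit, the ends and extreme of the longest runs, the 3 tiles farthest above and below their neighbours, and the 3 with the largest SD. TA31C08, TA34H02, rows, shorter runs, the division into stretches and the difference between replicate pairs were chosen after their values were seen. Alternatives changed the centring, scaling, replicates, thresholds and order of wells. No sequence or gene is printed, since none was matched to a tile.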

Additional observations from a re-analysis of the deposited data

How the results depend on the processing

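Counts on 1 side depended on the choice of zero. With values as deposited 94 tiles of the segment were above 0, and with mode centring 105, against 213 with the median. Of the segment's called tiles, 22.3% and 23.6% were then above, against 47.3%. Over all called tiles of the array these shares were 27.2% and 28.4%, against 49.9%, so the array shifted too. The segment's called tiles on both sides numbered from 360 to 451 under the alternatives with all 4 replicates. With 1 replicate left out they numbered 426 to 446 (200 to 212 above, 226 to 234 below). With the means of I and III and of II and IV as replicates, limma left 409 called tiles. Of these, 407 were called on the same side in the 4-replicate fit. The fit on pair means cannot show that calls survive the pairing, since it also strengthened tiles on which the pairs disagreed. TA36A05, with the largest spread of the segment, had a limma adjusted p of 5.2e-06 there, against 0.033 with 4 replicates. A random block of these pairs left 414 called tiles. This fit likewise gave TA36A05 a smaller limma adjusted p (0.011), though that of TA36A11 was larger (0.00038, against 6.6e-05). It too cannot show that calls survive the pairing. The segment's median was -0.70 as deposited, -0.72 with mode centring, 0.45 with centring on the TA series, -0.0060 without the outermost rows (chosen after seeing the data), and -0.09 to -0.07 with a replicate left out. The share of tiles beyond a threshold of 0.5 was 32.6% above and 36.9% below, and beyond 2 it was 2.34% and 11.5%; with a threshold of 1 and a replicate left out it was 18.3% to 19.2% and 25.5% to 26.4%. The r of adjacent tiles was 0.12 down columns, 0.67 with plate medians removed and 0.70 to 0.71 with a replicate left out. Read down columns, the longest runs had 5 tiles above and 6 below, and there were 129 and 134 runs; with a replicate left out the longest stayed at 22 and 18 tiles, and there were 60 to 63 and 61 to 65 runs. Among 45 named tiles, 38 changed neither call nor, where called, sign under any alternative run. With mode centring TA31A03 (-0.54) and TA34E02 (-0.50) turned from above to below the zero (limma adjusted p = 0.0024 and 0.0052). They were called in no other setting. With values as deposited their means were nearly the same, -0.53 and -0.49, but not called (limma adjusted p = 0.055 and 0.23). Without 1 replicate (II for TA31A03, IV for TA34E02) their means were also below 0 and not called. The mode lay 0.94 above the median in replicate II and 0.49 to 0.57 above it in the others. The mode-centred fit gave far smaller p-values, as for TA31A08 (limma adjusted p = 5.2e-163, against 2.5e-06 as deposited). Beyond the altered settings themselves, the cause of the changes was not tested.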
